A study of Mus musculus with 4 samples.

Results

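Genes of MHC class I loading and of the immunoproteasome were followed across diet and cell fraction in sorted mouse intestinal cells. The genes were H2-K1, H2-D1, B2m, Tap1, Tap2, Tapbp, Nlrc5, Psmb8, Psmb9 and Psmb10. They were chosen by name for their role in class I peptide loading and in the immunoproteasome, with earlier results of these data known. Their share of calls, set beside that of all genes, is therefore a description and not a test. The genes are 10 of the 38124 gene IDs in the count tables, found by mapping Ensembl IDs to mouse symbols, and all 10 were among the 10694 genes tested.

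RNA came from C57BL/6 male mice aged 71 weeks, kept either on a high-fat diet (HFD) or on a diet that the labels call normal and that is called control here. The titles of the control libraries carry the letters WT, and no genotype is given for the HFD mice. Cells were sorted by GFP brightness into a GFP-high fraction (intestinal stem cells, by its label) and a fraction of low GFP (progenitors, by its label), called GFP-low here. Each diet and fraction is represented by 1 poly(A)-selected, strand-specific library made from 200K sorted cells pooled from 2 to 5 mice. The sources used here give neither the promoter driving GFP nor the make-up of the diets. Whether the GFP-high and GFP-low cells of one diet were taken from shared mice is not stated in the labels. Diet and pool of mice therefore cannot be told apart. In such bulk samples, fewer cells of a type and less RNA per cell cannot be told apart either.

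MHC class I molecules display peptides from inside the cell to CD8 T cells. The proteasome cuts cytosolic proteins into peptides, the transporter of TAP1 and TAP2 pumps them into the endoplasmic reticulum, and tapasin (Tapbp) holds the empty class I molecule near the transporter while a peptide is loaded. The class I molecule itself is a heavy chain (H2-K1 and H2-D1 are the classical ones in these mice) paired with beta-2-microglobulin (B2m). Interferon gamma induces much of this route, in part through NLRC5, the class I transactivator, and it swaps the catalytic proteasome subunits PSMB5, PSMB6 and PSMB7 for the immunoproteasome subunits PSMB8, PSMB9 and PSMB10.

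The libraries held between 4677389 and 6207080 counts. Levels below are CPM, counts scaled to a common library total and adjusted by TMM, in which 3 counts, the upper limit allowed by a count of 0, stand for 0.449 to 0.680 CPM depending on the library. The fraction labels were matched by the data: all 8 stem cell markers tested were higher in the GFP-high libraries, and Lgr5, the marker of crypt base stem cells, measured 241 and 242 CPM there against 12.7 and 12.5 CPM in the GFP-low libraries (control first). The epithelial markers Epcam and Vil1 were abundant in all 4 libraries, with Epcam between 861 and 1136 CPM.

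Most of the class I genes were lower on the high-fat diet. By edgeR's quasi-likelihood F-test with diet and fraction as terms, 9 of the 10 fell under HFD at an adjusted p under 0.05, and 3.85% of all tested genes fell by the same rule (6.98% changed in either direction). The exception was Psmb10. The median log2 ratio of HFD over control was -0.82 for the 10 genes and 0.01 for all tested genes. Summed over the 10 genes, the level was 1653 CPM in the control GFP-high library and 2067 CPM in the control GFP-low library, against 928.7 and 1260.4 CPM under HFD, so that HFD held 56.2% and 61.0% of the control level in the 2 fractions. For the same 9 genes both HFD libraries lay below both control libraries, a pattern that 11.0% of all tested genes shared.

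Those p-values rest on the scatter among 4 libraries alone, and that scatter may be technical. The model has 1 residual degree of freedom, takes any diet-by-fraction difference as spread, and gives p-values for diet that are too small if the fractions share mice. With diet as the only term edgeR called 0 genes, with 156 genes, 6 of the 10 among them, at an unadjusted p under 0.05. That model counts the difference between fractions, called in 47.6% of all tested genes, as spread.

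**Figure D1:**
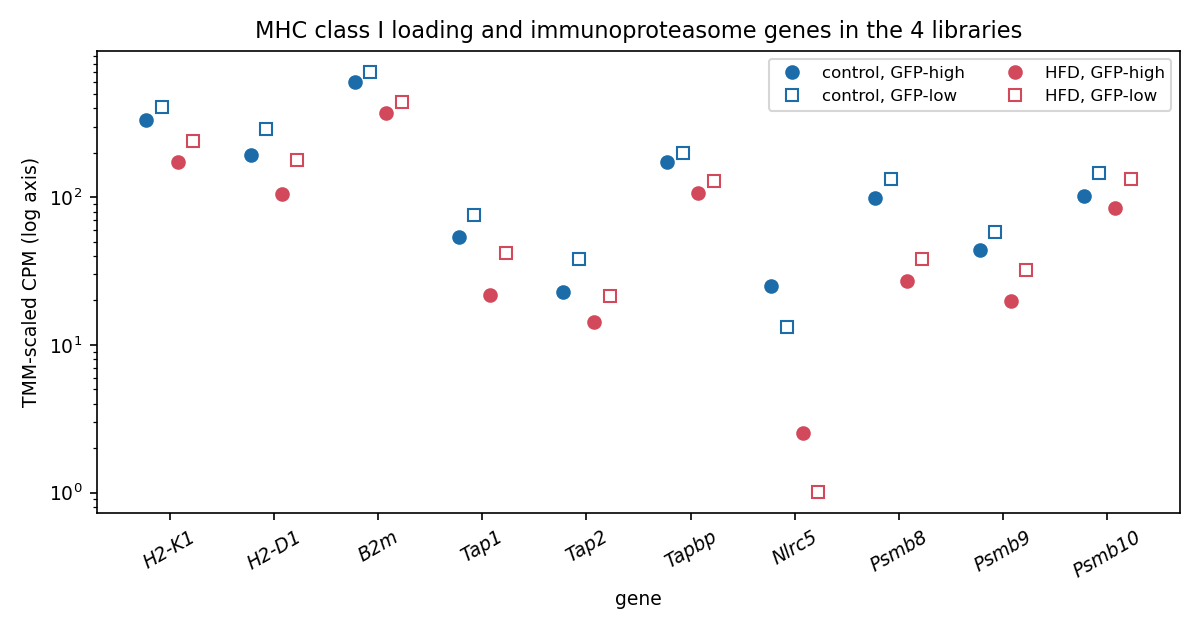
Level of the 10 genes in each of the 4 libraries, in TMM-scaled CPM on a log axis, with 1 point per library (filled circles GFP-high, open squares GFP-low, blue control, red HFD). In every gene except Psmb10 both red points lie below both blue points, and Nlrc5 alone has its filled points above its open ones.

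The heavy chains and their partner fell to between 55.2% and 62.3% of control. H2-K1, a classical heavy chain, measured 336 CPM in the control GFP-high library and 406 CPM in the control GFP-low library, and 173 and 241 CPM in the HFD libraries in the same order. Both HFD values lay below the lower control value. The fall was 1.81-fold (log2 -0.86 ± 0.10 SE, edgeR adjusted p = 4.31e-05). H2-D1, the other classical heavy chain, measured 193 and 291 CPM in the control GFP-high and GFP-low libraries and 106 and 178 CPM under HFD. The HFD GFP-low value came close to the control GFP-high value without reaching it. Its fall was 1.73-fold (log2 -0.79 ± 0.10 SE, edgeR adjusted p = 8.79e-05). B2m, the light chain of class I molecules, measured 604 and 707 CPM in control and 373 and 444 CPM under HFD. It fell 1.61-fold (log2 -0.68 ± 0.10 SE, edgeR adjusted p = 0.000281), and its diet ratio was nearly the same in GFP-high cells (log2 -0.70) and GFP-low cells (log2 -0.67).

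The heavy chains measured less relative to B2m under HFD, by more in GFP-high than in GFP-low cells. The ratio of H2-K1 to B2m, each per kilobase of exon, under HFD was 83.3% of the control ratio in GFP-high cells and 94.4% in GFP-low cells. For H2-D1 to B2m the corresponding values were 88.8% and 97.2%. These are ratios of single libraries and were not tested. In GFP-low cells the 95% counting intervals of the log2 diet ratios of H2-K1 (-0.86 to -0.65) and H2-D1 (-0.84 to -0.59) overlapped that of B2m (-0.75 to -0.59). In GFP-high cells the interval of H2-K1 (-1.07 to -0.85) lay apart from that of B2m (-0.77 to -0.62), and that of H2-D1 (-1.01 to -0.73) overlapped it. H2-K1 and H2-D1 have near-identical stretches: 14.8% of the 40-base stretches of H2-K1 transcripts and 19.1% of those of H2-D1 also occur in transcripts of other genes, each other among them, so reads from such stretches may have been lost or assigned to the wrong heavy chain. B2m shares none.

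The promoters of these 3 genes carry the same pair of short elements, shown here because they are the elements through which NLRC5 acts together with RFX, CREB and NF-Y proteins. Promoter windows of 300 bases (from RefSeq, build GRCm38.p6) were found for 8 of the 10 genes, and Tap2 and Nlrc5 had no entry. The 160 bases just upstream of the H2-K1 start, at chr17:34000348-34000507 on the minus strand, read as follows, with capitals marking a kappa B site (GGGATTCCC), the CRE half-site of the X2 box (TGACG) and the Y box (ATTGG), which do not overlap.
H2-K1: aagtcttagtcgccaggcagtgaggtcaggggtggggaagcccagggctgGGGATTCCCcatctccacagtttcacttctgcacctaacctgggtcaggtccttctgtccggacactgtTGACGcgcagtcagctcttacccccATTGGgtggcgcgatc

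The 30 bases that begin with TGACG in 4 of the genes show what is shared and what is not. They lie at chr17:34000359-34000388 on the minus strand (H2-K1), chr17:35262993-35263022 on the plus strand (H2-D1), chr2:122147609-122147638 on the plus strand (B2m) and chr17:34187470-34187499 on the plus strand (Tap1). In GENCODE M21 the H2-D1 stretch overlaps an annotated untranslated region of H2-D1, and the Tap1 stretch overlaps one of Psmb9. The H2-K1 and B2m stretches overlap none. Capitals mark the X2 half-site and, where present, the Y box.
H2-K1: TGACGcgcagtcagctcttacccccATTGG
H2-D1: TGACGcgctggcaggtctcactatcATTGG
B2m: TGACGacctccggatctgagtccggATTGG
Tap1: TGACGacagagggtcctgccctcaatctgg

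In H2-K1, H2-D1 and B2m the elements stood exactly 20 bases apart, while the bases between them differed. H2-K1 and H2-D1 were identical at 23 of these 30 positions, and H2-K1 and B2m at 13. The Tap1 stretch has no Y box at that distance and matched B2m at 16 positions. A search of both strands found TGACG in the windows of 5 of the 8 genes (B2m, H2-D1, H2-K1, Psmb9 and Tap1) and in 20.8% of all 32851 promoter windows, and ATTGG in 6 of the 8 (the same 5 and Tapbp) and in 37.4% of all windows. TGACG followed by ATTGG at a spacing of 15 to 25 bases, a range set after the sequences were seen, occurred in B2m, H2-D1 and H2-K1 and in 0.435% of all windows. The kappa B site GGGATTCCC was present in H2-D1 and H2-K1 and in 0.353% of all windows. GAAANNGAAA, the core of the interferon-stimulated response element, was found in B2m (3.44% of all windows), and TTCNNNGAA, the interferon gamma activation site, in Psmb8 (8.30% of all windows). The Psmb10 window held none of these letters. Only exact letters were searched, so elements that vary from them were not counted. The printed H2-K1 stretch holds tttcacttc, which is close to GAAANNGAAA when read on the opposite strand. A window without a match may therefore still hold such an element. Psmb9 and Tap1 start 225 bases apart on opposite strands, so their windows overlap and their matches to TGACG and ATTGG are the same bases.

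Tap1, Tap2 and Tapbp, which bring the peptide to the class I molecule, fell to 47.6%, 59.0% and 63.4% of control. Tap1, one chain of the peptide transporter, measured 54.1 CPM in the control GFP-high library, 75.7 CPM in the control GFP-low library, 21.9 CPM in the HFD GFP-high library and 41.7 CPM in the HFD GFP-low library. It fell 2.10-fold (log2 -1.07 ± 0.14 SE, edgeR adjusted p = 0.000125). Its fall was larger in GFP-high cells (log2 -1.29, 95% counting interval -1.60 to -1.02) than in GFP-low cells (log2 -0.85, interval -1.12 to -0.61), the widest gap between fractions among the 10 genes, and these intervals overlap. Tap2, the other transporter chain, measured 22.8 and 38.3 CPM in the control GFP-high and GFP-low libraries and 14.2 and 21.4 CPM under HFD. It fell 1.70-fold (log2 -0.76 ± 0.16 SE, edgeR adjusted p = 0.00843), and this was the gene whose call DESeq2 did not make (DESeq2 adjusted p = 0.462). Tapbp measured 173 and 198 CPM in control and 107 and 129.5 CPM under HFD, with no overlap between the diets. It fell 1.58-fold (log2 -0.66 ± 0.10 SE, edgeR adjusted p = 0.000457). Tapbp shares 149 exon bases with Zbtb22 on the same strand, and Tap1 shares 212 with Psmb9 on the opposite strand. Also on the opposite strand, Tapbp shares 904 with Gm19412, which is absent from the count tables, and Tap2 shares 533 with Gm15821. Gm20496, on the opposite strand as well, shares 165 exon bases with Tap2 and 498 with Psmb8. The strand setting of the counting is not given, so reads in these overlaps cannot be assigned with certainty.

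Nlrc5 changed most among the 10 genes. It had 139 counts in the control GFP-high library and 58 in the control GFP-low library, against 17 and 5 counts under HFD. In CPM these are 25.2 and 13.1 in control and 2.55 and 1.01 under HFD, and the highest HFD value was well below the lowest control value. The model gave a 10.6-fold fall (log2 -3.40 ± 0.32 SE, edgeR adjusted p = 3.71e-06), which left HFD at 9.44% of control. Without a model or a pseudocount the ratio of CPM was 9.88-fold in GFP-high cells (log2 interval -4.12 to -2.57) and 13.0-fold in GFP-low cells (log2 interval -5.38 to -2.39). The GFP-low interval is wide because the HFD library held only 5 counts. Nlrc5 shares 78 exon bases with 9330175E14Rik on the opposite strand, which had 17 and 4 counts in control and 7 and 2 under HFD.

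Of the immunoproteasome subunits, Psmb8 and Psmb9 fell and Psmb10 did not pass the test. Psmb8, which carries the chymotrypsin-like site of the immunoproteasome, measured 99.2 and 134 CPM in the control GFP-high and GFP-low libraries and 27.3 and 38.2 CPM under HFD. Every HFD value was under the lower control value by a wide margin. Psmb8 fell 3.56-fold (log2 -1.83 ± 0.12 SE, edgeR adjusted p = 3.89e-08), and its log2 ratio was -1.84 in GFP-high cells and -1.79 in GFP-low cells. Psmb9, a subunit whose gene sits head to head with Tap1, measured 43.8 and 57.8 CPM in control and 19.9 and 32.0 CPM under HFD. It fell 1.99-fold (log2 -0.99 ± 0.14 SE, edgeR adjusted p = 0.000281). Psmb10, which carries the trypsin-like site, measured 102 CPM in control GFP-high cells and 146 CPM in control GFP-low cells, and 84.8 and 134 CPM under HFD. Here the diets overlapped, since the HFD GFP-low library lay above the control GFP-high library. The Psmb10 difference missed the threshold (log2 -0.20 ± 0.10 SE, edgeR adjusted p = 0.30), with a counting interval of -0.44 to -0.10 in GFP-high cells and of -0.29 to 0.03 in GFP-low cells.

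**Figure D2:**
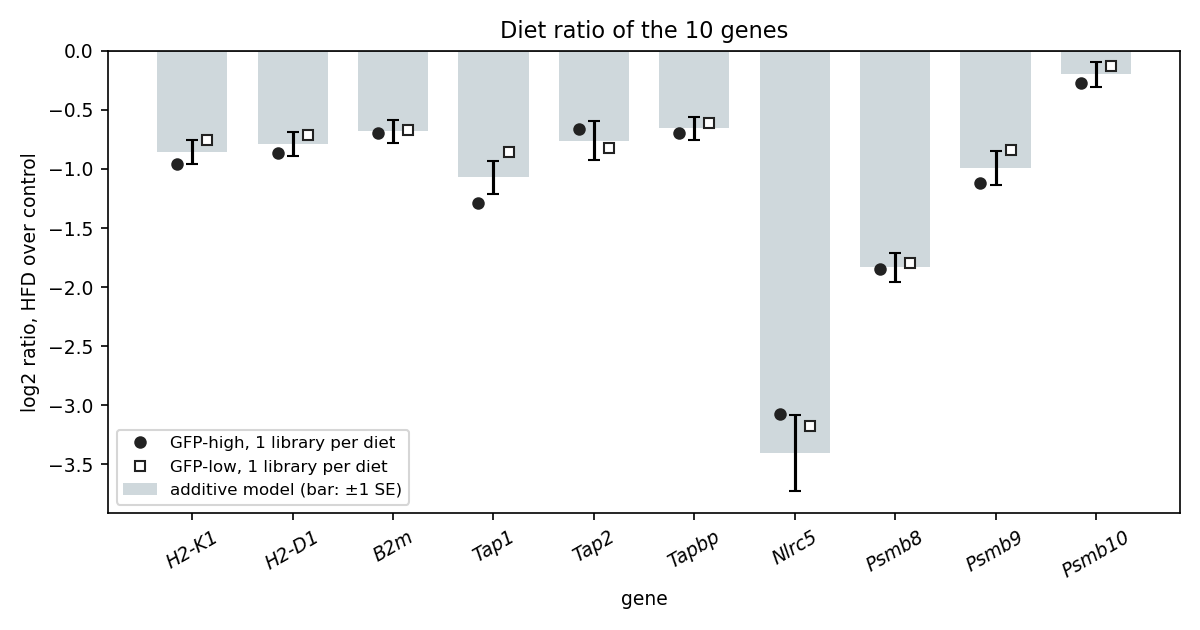
Log2 ratio of HFD over control for each gene. Bars are the additive model with ±1 SE, filled circles the ratio in GFP-high cells and open squares that in GFP-low cells, each from 1 library per diet with 0.5 CPM added. Nlrc5 (-3.40) and Psmb8 (-1.83) lie furthest below 0 and Psmb10 (-0.20) nearest to it.

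Compared library by library without a test, 4 of the 10 genes were at least 2-fold lower under HFD in GFP-high cells with at least 5 CPM in the higher library (Tap1, Nlrc5, Psmb8 and Psmb9), against 1.32% of all tested genes. In GFP-low cells 2 were (Nlrc5 and Psmb8), against 2.23% of all tested genes. The median log2 ratio of the 10 genes was -0.91 in GFP-high cells and -0.79 in GFP-low cells, and that of all tested genes was 0.02 and 0.00. The difference between the fractions in the diet ratio ran from -0.44 (Tap1, a larger fall in GFP-high cells) to 0.16 (Tap2, a larger fall in GFP-low cells) on the log2 scale. With 1 library per diet and fraction that difference could not be tested.

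The constitutive catalytic subunits that PSMB8, PSMB9 and PSMB10 replace did not pass the test by edgeR or DESeq2, and Psmb5 alone had an unadjusted edgeR p under 0.05. Psmb5 stood at log2 0.33 ± 0.13 SE (edgeR adjusted p = 0.148), Psmb6 of 0.02 ± 0.11 SE and Psmb7 of 0.02 ± 0.12 SE. Set against its constitutive counterpart per kilobase of annotated exon, Psmb8 stood at 0.805 of Psmb5 in the control GFP-high library and 0.673 in the control GFP-low library, and at 0.165 and 0.163 under HFD. HFD thus held 20.4% of the control ratio in GFP-high cells and 24.2% in GFP-low cells. The ratio of Psmb9 to Psmb6 was 0.234 and 0.251 in control and 0.109 and 0.133 under HFD, or 46.5% and 53.0% of control. The ratio of Psmb10 to Psmb7 was 3.25 and 3.76 in control and 2.44 and 3.73 under HFD, or 75.0% and 99.2% of control. Ordered by how much of the ratio was left, the pairs ran Psmb8, Psmb9, Psmb10 in both fractions. The percentages do not depend on gene length, but the ratios do: with the length of the principal transcript, Psmb8 stood at 1.67 and 1.4 of Psmb5 in control and 0.342 and 0.339 under HFD. Psmb7 shares 405 exon bases with Nek6 on the opposite strand.

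**Figure D3:**
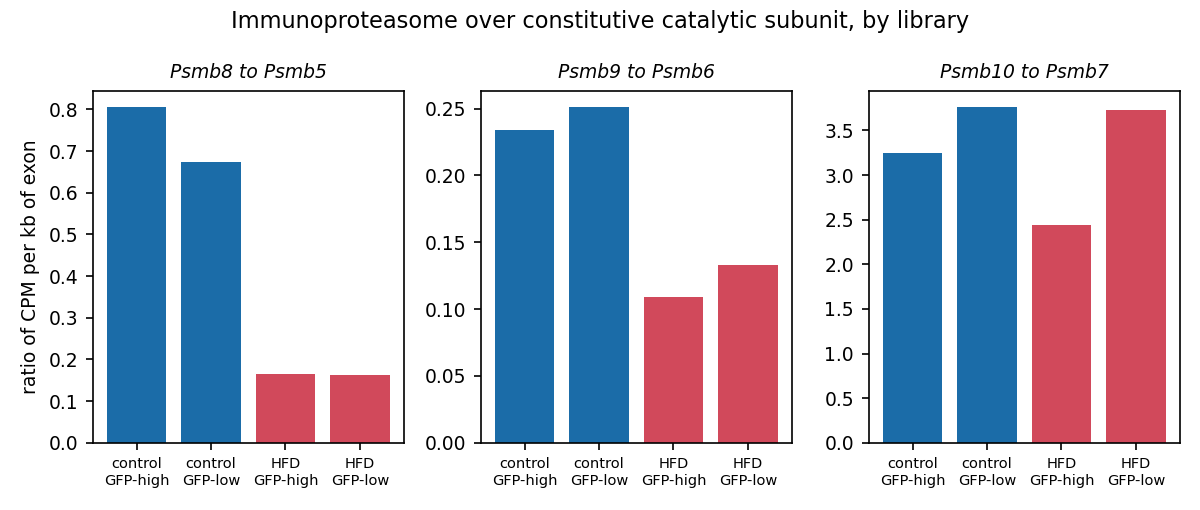
Ratio of each immunoproteasome subunit to the constitutive subunit it replaces, in CPM per kilobase of annotated exon, with 1 bar per library (blue control, red HFD) and a separate axis from 0 for each pair. The HFD bars of Psmb8 to Psmb5 are 0.165 and 0.163 against 0.805 and 0.673 in control, while for Psmb10 to Psmb7 the GFP-low bars are 3.73 and 3.76.

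Per kilobase of exon, B2m was the most abundant of the 10 genes and Nlrc5 the least abundant in all 4 libraries. B2m reached 702 and 822 CPM per kilobase in the control GFP-high and GFP-low libraries and 433 and 516 under HFD, whereas Nlrc5 reached 2.96 and 1.55 in control and 0.300 and 0.119 under HFD. H2-K1 came second everywhere, with 114 and 138 CPM per kilobase in control and 58.8 and 82.0 under HFD. The third place went to H2-D1 in both control libraries (74.9 and 113 CPM per kilobase) and to Psmb10 in both HFD libraries (49.7 and 78.3). Tapbp, Psmb8, Psmb9, Tap1 and Tap2 followed in that order in every library. Psmb9 and Tap1 did not differ beyond their counting intervals in any library, nor did Tap1 and Tap2 in either HFD library. In the HFD GFP-low library the neighbours H2-K1 and Psmb10, Psmb10 and H2-D1, and Psmb8 and Psmb9 also had overlapping intervals. With the principal transcript as the length, Psmb8 moved above Tapbp in both control libraries and below Psmb9 in the HFD GFP-low library, and the other places were the same.

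The class I genes were mostly lower in the stem cell fraction, apart from Nlrc5. Of the 10 genes, 7 were lower in GFP-high than in GFP-low cells by the edgeR test (H2-K1, H2-D1, Tap1, Tap2, Psmb8, Psmb9 and Psmb10), against 25.8% of all tested genes, and Nlrc5 was higher. Counting both directions gives 8 of 10, against 47.6% of all tested genes. The median log2 ratio of the fractions (GFP-high over GFP-low) was -0.49 for the 10 genes and 0.00 for all tested genes. Tap1 (log2 -0.68 ± 0.14 SE, edgeR adjusted p = 0.000849), Tap2 (log2 -0.68 ± 0.16 SE, edgeR adjusted p = 0.00288) and H2-D1 (log2 -0.67 ± 0.10 SE, edgeR adjusted p = 4.27e-05) had the lowest ratios. B2m (log2 -0.24, edgeR adjusted p = 0.0532) and Tapbp (log2 -0.24, edgeR adjusted p = 0.0612) missed the threshold. Other lists were lower in GFP-high cells as well. The median log2 fraction ratio was -0.84 for the endoplasmic reticulum partners of class I (4 of 5 called lower), -0.34 for the other core subunits of the proteasome (6 of 11) and -0.69 for the epithelial markers (6 of 8). It was -3.15 for the enterocyte markers (9 of 9), -1.32 for the Paneth markers (9 of 9) and -2.94 for the goblet, enteroendocrine and tuft markers (8 of 8). Their part in the fraction ratios of the class I genes was not tested. Both GFP-high libraries lay below both GFP-low libraries for Psmb10 alone, against 34.3% of all tested genes, because in the other genes that were lower in GFP-high cells the control GFP-high library exceeded the HFD GFP-low library.

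Nlrc5 ran the other way, 2.0-fold higher in GFP-high cells (log2 1.0 ± 0.30 SE, edgeR adjusted p = 0.0108). Within control its log2 ratio was 0.91 with a counting interval of 0.49 to 1.41, and within HFD it was 1.01 with an interval of -0.17 to 3.13, which includes 0.

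The fraction calls depend on the scaling, whereas the 9 diet calls were made under every scaling tried. With library totals in place of TMM, the median log2 fraction ratio of all tested genes moved to 0.19, the split of calls went from 2335 higher and 2758 lower to 3628 higher and 1931 lower, and 4 of the 10 genes remained lower. The calls lost were those of H2-K1 (edgeR adjusted p = 0.134), Psmb8 (0.0716) and Psmb9 (0.0609). DESeq2 made 3 of the 8 fraction calls, for H2-D1, Tap1 and Psmb10, and called 2390 of the 10694 tested genes.

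**Figure D4:**
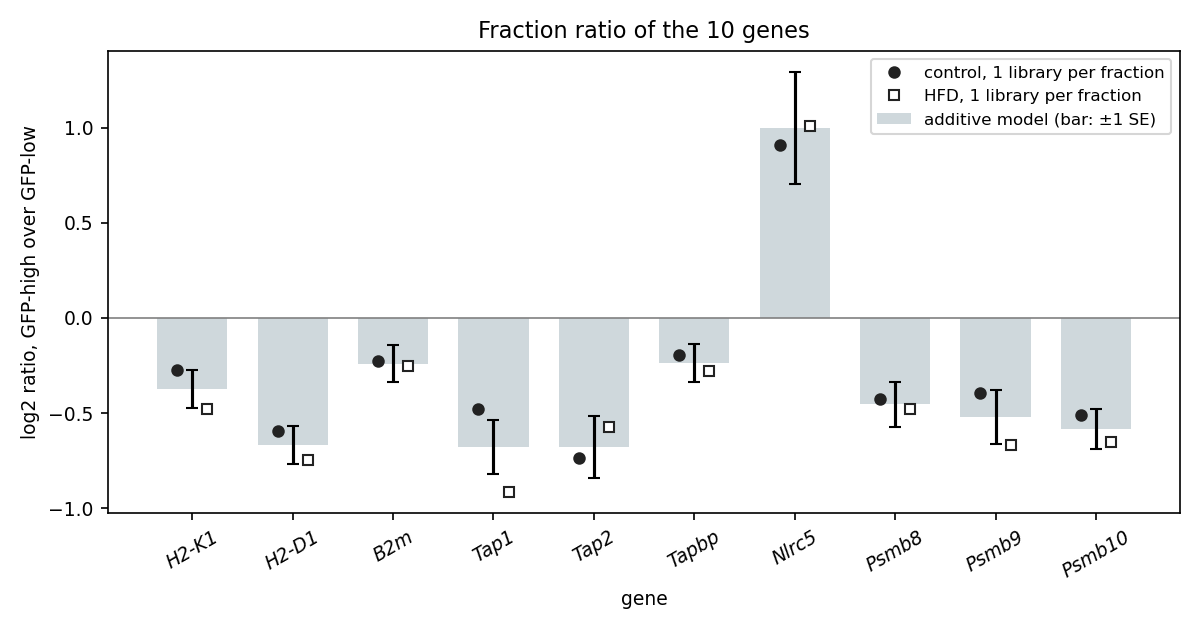
Log2 fraction ratio (GFP-high over GFP-low) for each gene. Bars are the additive model with ±1 SE, filled circles the ratio within control and open squares that within HFD, from 1 library per fraction with 0.5 CPM added. Nlrc5 (1.0) is the only gene above 0, and B2m and Tapbp (both -0.24) are the nearest to 0 among the rest.

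Other genes of the class I route did not all move with the 10. Among all 10694 tested genes, 412 (3.85%) fell under HFD and 334 rose by edgeR, the background for the list counts that follow. In the endoplasmic reticulum, 0 of 5 partners of class I passed the test for diet by edgeR or DESeq2, with a median log2 ratio of -0.18, and 2 had an unadjusted edgeR p under 0.05. The lowest were Tapbpl, the tapasin-related editor of bound peptides (log2 -0.42, edgeR adjusted p = 0.101), and Pdia3, the disulfide isomerase of the loading complex (log2 -0.31, edgeR adjusted p = 0.117). Calr and Canx, the lectin chaperones of the heavy chain, were at -0.18 and -0.03, and Erap1, which trims peptides to length, was at -0.06. Of 8 other peptidases listed for the class I route none passed by either tool (median log2 -0.04), with 1 rising and 1 falling at an unadjusted edgeR p under 0.05. Of the 11 other core subunits of the proteasome none passed by either tool, nor at an unadjusted edgeR p under 0.05 (median log2 0.06), from Psma3 at -0.21 to Psmb1 at 0.14. The catalytic Psmb8 and Psmb9 therefore fell while the measured rest of the core did not pass the test.

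Of the proteasome activators and assembly factors, 1 of 5 fell. This was Psme1 (log2 -0.41 ± 0.10 SE, edgeR adjusted p = 0.016, DESeq2 adjusted p = 0.559), which with Psme2 forms the interferon-induced activator PA28. Psme2 had a similar ratio and missed the threshold (log2 -0.43 ± 0.15 SE, edgeR adjusted p = 0.0911). Psme3, of the nuclear form of the activator, had a log2 ratio of 0.13, and Pomp, the assembly chaperone, of 0.11.

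Among the other class I heavy chains and class I-like molecules, 11 of 24 in the tables were tested, 4 fell and 1 rose (median log2 -0.49). The larger falls were in H2-Q6 and H2-Q7, nonclassical chains of the Q region. H2-Q7 had 224 and 100 counts in the control GFP-high and GFP-low libraries and 44 and 18 under HFD, a 6.15-fold fall (log2 -2.62 ± 0.21 SE, edgeR adjusted p = 6.47e-07). H2-Q6 had 91 and 23 counts in control and 11 and 5 under HFD, an 8.08-fold fall (log2 -3.01 ± 0.39 SE, edgeR adjusted p = 0.000123). These genes share 32.0% and 42.5% of their 40-base stretches with other genes, so the counts of single Q genes are uncertain. Like Nlrc5, both were higher in GFP-high than in GFP-low cells by edgeR. The log2 fraction ratio was 0.84 for H2-Q7 (edgeR adjusted p = 0.00304) and 1.46 for H2-Q6 (edgeR adjusted p = 0.00464). DESeq2 called neither (DESeq2 adjusted p = 0.0993 for H2-Q7 and 0.151 for H2-Q6). H2-Q4 (log2 -0.99, edgeR adjusted p = 0.00142, DESeq2 adjusted p = 0.114) and H2-T23, the mouse Qa-1 chain (log2 -0.65, edgeR adjusted p = 0.0112, DESeq2 adjusted p = 0.518), also fell. Fcgrt, the neonatal Fc receptor, which pairs with B2m but presents no peptide, rose 1.60-fold (log2 0.68 ± 0.14 SE, edgeR adjusted p = 0.00785, DESeq2 adjusted p = 0.486). H2-T3 (log2 0.16), Hfe (log2 0.84), H2-T22 (log2 -0.49), H2-Q10 (log2 -0.63), H2-Q1 (log2 -0.43) and H2-Q2 (log2 -0.29) did not pass.

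Of 16 transcription factors that act at class I promoters, 3 fell and none rose (median log2 -0.20). Ciita, the class II transactivator and a relative of NLRC5, measured 68.2 and 22.9 CPM in the control GFP-high and GFP-low libraries and 14.5 and 6.27 CPM under HFD (log2 -2.12 ± 0.17 SE, edgeR adjusted p = 6.47e-07). The HFD GFP-high value lay below both control values, and Ciita, like Nlrc5, was higher in GFP-high cells (log2 1.47). Irf1, an interferon-induced activator, measured 149 and 179 CPM in control and 95.6 and 121 CPM under HFD (log2 -0.60 ± 0.10 SE, edgeR adjusted p = 0.00104, DESeq2 adjusted p = 0.0867). The proteins that bind the X and Y boxes beside NLRC5 did not pass: Rfx5 was at -0.04, Rfxank at -0.28, Rfxap at -0.06, Creb1 at -0.22, Nfya at -0.21, Nfyb at 0.30 and Nfyc at 0.30 on the log2 scale. Nor did Rela (log2 -0.38, edgeR adjusted p = 0.0711), Nfkb1 (log2 -0.33, edgeR adjusted p = 0.083) and Relb (log2 -0.19), whose proteins bind kappa B sites. At an unadjusted edgeR p under 0.05, 5 of the 16 fell and 1, Nfyc, rose.

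In the interferon gamma signalling list, 4 of 10 tested genes fell and none rose (median log2 -0.44), Irf1, Jak2 and Socs3 among them. Socs3, a feedback inhibitor of cytokine signalling, had the lowest ratio (log2 -1.33 ± 0.24 SE, edgeR adjusted p = 0.00219, DESeq2 adjusted p = 0.0771), and DESeq2 called none of the 4. The receptor chains Ifngr1 (log2 -0.14) and Ifngr2 (log2 -0.10) did not pass, and are named after their values were seen, as is Jak2. Of the interferon-induced genes outside antigen presentation, 11 of 33 were tested, 5 fell and none rose (median log2 -0.61). Irgm2 (log2 -2.13 ± 0.22 SE, edgeR adjusted p = 1.22e-05) and Gbp7 (log2 -1.86 ± 0.34 SE, edgeR adjusted p = 0.00242, DESeq2 adjusted p = 0.0874), both interferon-induced GTPases, were the lowest, and Ifit2 (log2 0.72, edgeR adjusted p = 0.316) was the highest. DESeq2 called 3 of the 5.

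Of the 10 genes, 6 lie in the part of the MHC on chromosome 17 that runs from H2-K1 (chr17:33996017-34000347, minus strand) to H2-D1 (chr17:35262730-35267499, plus strand). Positions are in GRCm38 with GENCODE M21 gene models. Psmb9 (chr17:34181987-34187764, minus strand), Tap1 (chr17:34187553-34197225, plus strand), Psmb8 (chr17:34197721-34201454, plus strand) and Tap2 (chr17:34203527-34216321, plus strand) form a tight cluster between them. Tapbp (chr17:33915899-33929292, plus strand) ends 66.7 kb before H2-K1. B2m is on chromosome 2 (chr2:122147686-122153083, plus strand), and Nlrc5 (chr8:94434356-94527272, plus strand) and Psmb10 (chr8:105935735-105938444, minus strand) are on chromosome 8. The interval from H2-K1 to H2-D1 spans 1271.5 kb.

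Within that interval the class I and class II genes fell and most others did not pass the test. All 6 class I genes in it fell, with a median log2 ratio of -0.92. Of the 10 MHC class II genes there, 5 were tested and all 5 fell, with a median log2 ratio of -3.26. The lowest were H2-Aa (log2 -4.51 ± 0.17 SE, edgeR adjusted p = 6.29e-11) and H2-Ab1 (log2 -3.56 ± 0.12 SE, edgeR adjusted p = 4.57e-11), the chains of the I-A molecule. Of the 38 other tested genes in the interval 4 fell and none rose, while 3.85% of all tested genes fell. The median log2 ratio of the 38 was 0.03. Those 4, named after their values were seen, were Hspa1b (log2 -1.58), Notch4 (log2 -1.15), Btnl2 (log2 -0.82) and Slc44a4 (log2 -0.53). The highest ratios in the interval were those of Slc39a7 (log2 0.72, edgeR adjusted p = 0.195) and Fkbpl (log2 0.36, edgeR adjusted p = 0.621), neither past the threshold.

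**Figure D5:**
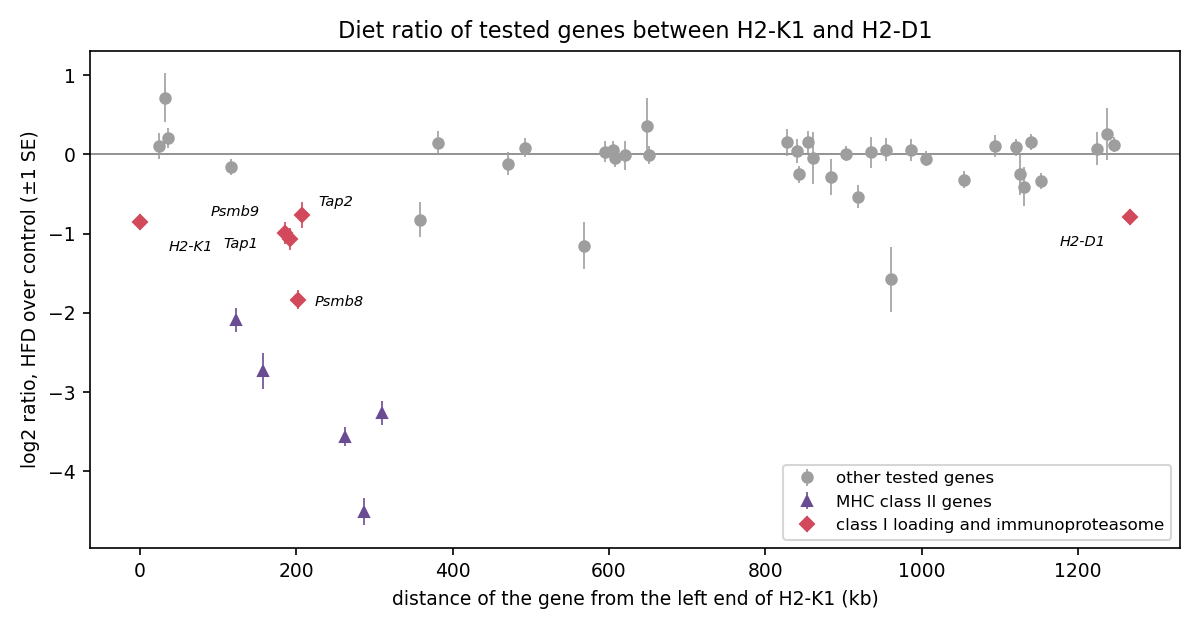
Log2 ratio of HFD over control (±1 SE) of every tested gene between H2-K1 and H2-D1, against its distance in kb from the left end of H2-K1. The 6 class I genes (red diamonds, median -0.92) and the 5 class II genes (purple triangles, median -3.26) lie below 0, and the 38 other genes (grey circles) have a median of 0.03.

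Markers of leukocytes, stroma and endothelium were low, and the summed leukocyte markers were lower under HFD. The 33 leukocyte markers summed to 53.6 and 53.9 CPM in the control GFP-high and GFP-low libraries and to 22.8 and 31.8 CPM under HFD. Of these, 11 were at 0 in every library, among them Ptprc, Cd4, Cd8b1, Trac, Cd2, Ms4a1, Klrb1c, Adgre1, Csf1r and Tyrobp, named after their values were seen. Cd3e, of the T cell receptor complex, had 2 and 3 counts in the control GFP-high and GFP-low libraries and 0 in both HFD libraries. Of the list, Cd14 (log2 -1.87, edgeR adjusted p = 0.000136) and Itgam (log2 -0.36, edgeR adjusted p = 0.337) had enough counts to test. Without them, a choice made after their values were seen, the other 31 summed to 10.3 and 13.4 CPM in control and 4.94 and 7.49 CPM under HFD. The 12 T and cytotoxic lymphocyte genes together held 8 and 15 counts in control and 0 and 3 under HFD. The 13 stromal and endothelial markers, none with enough counts to test, summed to 7.42 and 5.66 CPM in the control GFP-high and GFP-low libraries and to 6.59 and 6.07 CPM under HFD, lower under HFD in GFP-high cells and higher in GFP-low cells.

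Epithelial lineage markers were abundant and shifted too. The goblet, enteroendocrine and tuft markers summed to 2929 and 33605 CPM in the control GFP-high and GFP-low libraries and to 2620 and 14659 CPM under HFD. The enterocyte markers summed to 513 and 2697 CPM in control and 758 and 6286 CPM under HFD. The Paneth markers summed to 788 and 2310 CPM in control and 466 and 1159 CPM under HFD. Of the enterocyte markers, 7 of 9 rose under HFD (median log2 1.09), 7 of 9 Paneth markers fell (median log2 -0.73) and 4 of 8 goblet, enteroendocrine and tuft markers fell (median log2 -0.61), while 0 of 8 stem cell markers passed by edgeR or DESeq2 (median log2 -0.02), 2 of them with an unadjusted edgeR p under 0.05. DESeq2 called 5 of the enterocyte markers higher, 4 of the Paneth markers lower and 0 of the goblet, enteroendocrine and tuft markers. The part of these marker shifts, leukocyte or epithelial, in the diet ratios of the class I genes was not tested.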

How the data were processed

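The deposited values are raw counts of reads per gene, which the authors obtained with cutadapt, TopHat version 1.4.1 and HTSeq on GRCm38 (mm10), per the submitters' processing notes. Neither the annotation release nor the strand setting is given in the sources used here. Of 38124 gene IDs, 36345 had a symbol in the reference tables.

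Counts were scaled with TMM factors computed over all genes and tested with edgeR 4.0.16 in R 4.3.3 (quasi-likelihood F-test, default settings, two-sided) in 1 additive model with diet and fraction over all 4 libraries. Genes reaching 20 counts in 2 or more libraries entered (10694), p-values were Benjamini-Hochberg adjusted over all of them, and the threshold was 0.05. The common dispersion was 0.00695. SE is the log2 ratio divided by the square root of F. Ratios between single libraries used CPM with 0.5 CPM added, which understates changes of low genes. Their intervals are exact 95% intervals for a ratio of Poisson counts, without the added 0.5 CPM. Without molecular identifiers, these intervals and limits cover only the error of counting.

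Exon lengths and positions came from GENCODE M21. Exon lengths include retained-intron transcripts, which understates the level per kilobase of some genes. DESeq2 1.42.0, other scalings, filters and models were tried as alternatives, and the fit was tested on simulated data.

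The 10 genes and the gene lists were chosen with earlier results of these data known. All tested genes of the lists of endoplasmic reticulum partners, other class I chains, catalytic subunits, proteasome activators and transcription factors could be named. From the other lists and the H2-K1 to H2-D1 interval the 2 highest and 2 lowest diet ratios could be named, besides Ptprc, Cd3e, Epcam, Vil1, Lgr5 and Irf1. The values of some listed genes are not reported here.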

Additional observations from a re-analysis of the deposited data

How the results depend on the processing

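No direction reversed among the 10 genes under any alternative. Of 79 alternative values for the diet ratios 69 kept the side of the threshold and 10 lost it: all 9 called genes with diet as the only term, and Tap2 by DESeq2. Of 79 for the fraction ratios 63 kept it, 15 lost it and 1 gained it (B2m with a filter of 100 counts, edgeR adjusted p = 0.047). Genes called for diet numbered 746, 1133 without a filter, 186 by DESeq2 and 0 with diet as the only term. The last alternative, which counts the fraction difference as spread, also took the class I genes called lower under HFD from 9 to 0. The others gave 8 or 9. Of the 10694 tested genes, 5093 were called for fraction, 5559 with library totals, 2390 by DESeq2 and 2811 with fraction as the only term. The class I genes called for fraction went from 8 to 5 with library totals, 3 by DESeq2 and 1 with fraction as the only term. Their median log2 fraction ratio went from -0.49 to -0.30 with library totals. With library totals the class I share of fraction calls was close to that of all tested genes, and with fraction as the only term it was lower. TMM factors over the tested genes alone (563 genes called for diet) and a robust spread (691), both chosen after seeing the data, left 9 class I genes lower under HFD. Among the lists, DESeq2 called 2 other class I chains lower and 0 higher, 0 activators, 1 transcription factor, 0 interferon gamma signalling genes and 3 interferon-induced genes. With diet as the only term every one of these list counts was 0. Without a filter 11 interferon-induced genes, 1 endoplasmic reticulum partner and 1 peptidase fell. With a filter of 100 counts 3 interferon-induced genes and 1 peptidase fell. That filter left Nlrc5 untested.

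No library could be left out, because the additive model would then have no residual degree of freedom. No paired analysis was possible because each diet and fraction has 1 library and the labels carry no replicate numbers. Depth limits Nlrc5 most: with 2 CPM added in place of 0.5, its log2 diet ratio in GFP-low cells was -2.33 in place of -3.17.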
